A study of Cricetulus griseus with 6 samples.

Results

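Genes of the cell death machinery were examined in CHO-K1, an established line derived from the ovary of the Chinese hamster, after culture with or without the polyamine precursor putrescine. They comprise caspases, BCL2 family members, inhibitors of apoptosis (IAPs), death receptors and their adaptors. The 38 genes were listed by symbol, and a gene entered where the array had a probe set annotated with its symbol alone, which held for 25 of the 38 (and for 14899 genes in all). Where a gene had several probe sets, that with the highest mean over the 6 arrays was used. All 6 suspension cultures grew in the serum-free medium SFM-F10 without other polyamines or ornithine; 3 received 1 mg/l putrescine and 3 received none. RNA was taken on day 3 from replicate flasks of the same line, and each culture was hybridised to its own Affymetrix array. The cultures are called P1 to P3 with putrescine and N1 to N3 without it, after their replicate numbers.

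Apoptosis is carried out by caspases, proteases that are started along 2 routes. In the mitochondrial route, BH3-only proteins sense stress and free BAX and BAK from the survival proteins of the BCL2 family, and BAX and BAK then open the outer mitochondrial membrane. In the receptor route, ligands of the TNF family bind death receptors, and adaptor proteins bring in the initiator caspase encoded by Casp8. IAPs and the protein FLIP hold caspases in check, and hamster cell lines used for protein production are often engineered in this pathway to live longer in culture. The roles given are known mainly from human and mouse.

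The values are log2 array levels, so a difference of 1 is 2-fold, and each difference is the mean without putrescine minus the mean with it. A gene is said to rise or fall where limma, fitted over all probe sets, gave a Benjamini-Hochberg adjusted p under 0.05. Arrays of the same group correlated across probe sets at r = 0.9957 to 0.9962 and arrays of different groups at 0.9856 to 0.9878. The median difference over all probe sets was 0.007. A set of 14 genes that mark other tissues, such as Alb, Gfap and Ptprc, had a median level of 3.58, with a range of 2.44 to 5.13. The median serves here as the marker level, that of a gene CHO cells should not express. None of these 14 passed the test, and their mean level per array was 3.53 to 3.63 with and 3.49 to 3.61 without putrescine. Of 8 ovarian follicle markers measured, Lhcgr, Gdf9, Bmp15, Zp3 and Nobox were below 3.58, and Fshr, Inha and Star were above it, Star at 6.76. Star rose by 0.67 (adjusted p = 0.00277) and Gdf9, although below the marker level, fell by 0.58 (adjusted p = 0.0191), and the other 6 did not pass.

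Without putrescine, 6 of the 25 cell death genes rose, 7 fell and 12 missed the threshold. With any single array left out, 3 or 4 rose. The largest differences were in Casp2, which rose 2.29-fold, Htra2, which was 2.20-fold lower, Bak1, which rose 1.84-fold, and Tradd, which was 1.59-fold lower. These 4 were the members that changed at least 1.5-fold, and 9 further members changed by less. Across all 14899 genes, 30.0% passed the test (15.8% higher and 14.2% lower), and 12.9% both passed and differed at least 1.5-fold. Among the 11424 genes above the marker level 38.4% passed, 20.1% higher and 18.3% lower, and 23 of the 25 members were above that level. The groups did not overlap for 15 of the 25 members and for 44.5% of all genes. Above the marker level they did not overlap for 15 of 23 members and for 6247 of 11424 genes. In bulk RNA, fewer cells expressing a gene and less of its RNA per cell cannot be told apart.

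**Figure D1:**
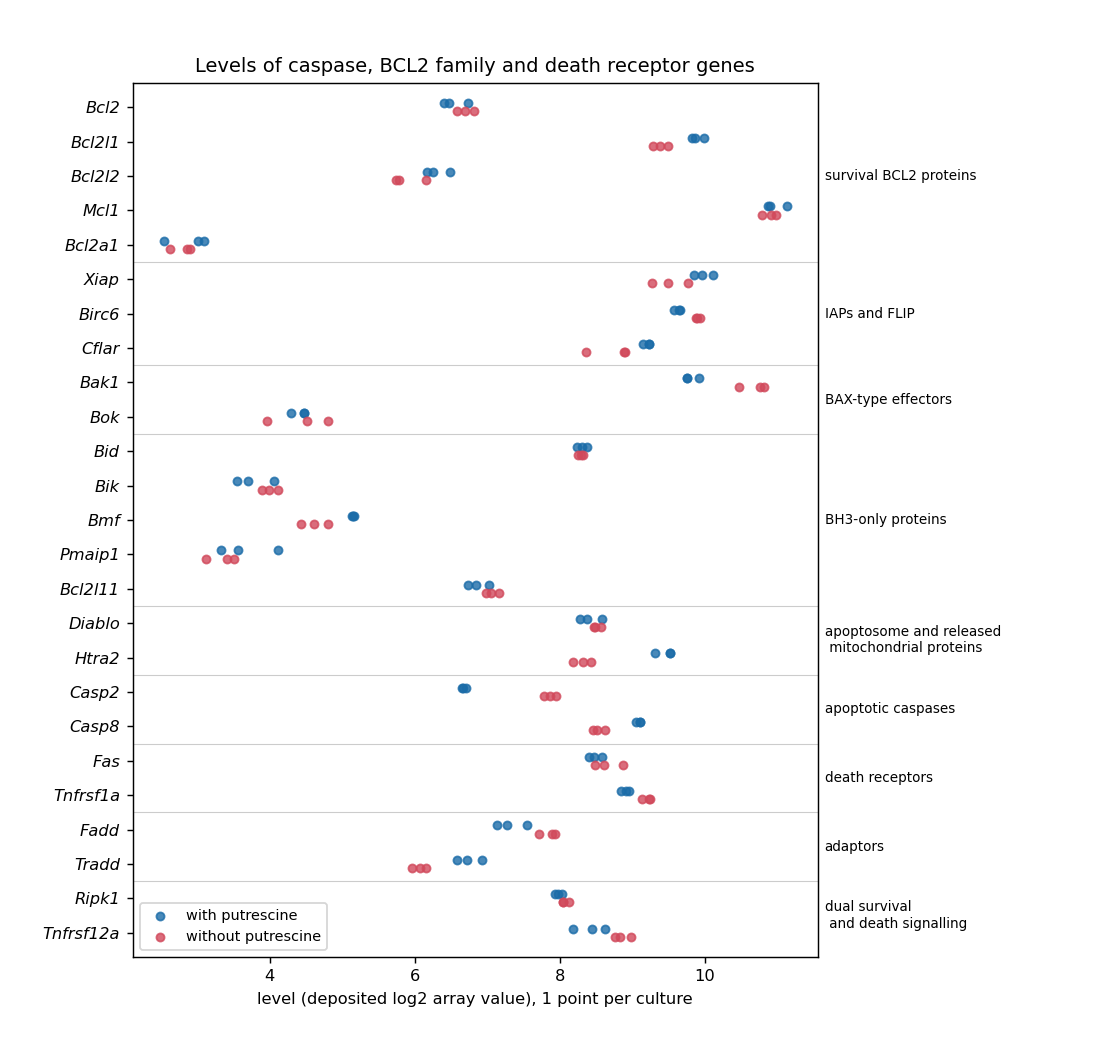
Log2 level (x axis) of each of the 25 genes in each of the 6 cultures, with putrescine in blue and without in red, grouped by role. The 2 colours are far apart for Casp2, Htra2 and Bak1 and lie over one another for Mcl1, Bid and Diablo; levels of different genes come from different probes and are not comparable.

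Of the BCL2 family genes that protect cells, Bcl2l1 fell and the other 4 did not pass the test. Bcl2l1 encodes BCL-XL, which binds BAX, BAK and BH3-only proteins. Bcl2l1 (probe set 18052363) measured 9.38, 9.50 and 9.29 in the cultures without putrescine and 9.82, 9.87 and 9.99 in those with it. Every culture without putrescine was below every culture with it. It fell by 0.50 on the log2 scale (SE 0.09, adjusted p = 0.00437), which is 1.42-fold.

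Bcl2l2, which encodes the related survival protein BCL-W, measured 5.75, 6.16 and 5.79 without and 6.26, 6.17 and 6.49 with putrescine. The groups were separated by the narrow gap between 6.16 and 6.17, with N2 close to the other group. Its log2 difference was -0.41 (SE 0.13, 95% interval -0.71 to -0.10, adjusted p = 0.0583). It passed the test in 3 alternatives: without N2 (-0.54), over probe sets above the marker level, and with a trended, robust variance prior (adjusted p 0.0173 to 0.175 over all alternatives).

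Mcl1, whose short-lived product guards BAK, measured 10.79, 10.91 and 10.98 without and 10.87, 11.13 and 10.90 with putrescine. The groups overlapped, and the difference was -0.07 (95% interval -0.30 to 0.16, adjusted p = 0.681). Bcl2, the founding survival gene of the family, had 0.16 (95% interval -0.09 to 0.42, adjusted p = 0.362), also with overlapping groups. Bcl2a1, which encodes the survival protein A1, was below the marker level in every culture, at 2.80 ± 0.15 without and 2.88 ± 0.30 with putrescine (SD, n = 3).

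Of the inhibitors that act on caspases, Xiap and Cflar fell and Birc6 rose. Xiap encodes the IAP that binds active caspases directly. Xiap (probe set 17982037) measured 9.28, 9.50 and 9.77 without and 9.97, 10.11 and 9.86 with putrescine. The groups did not overlap, although the cultures without putrescine were spread over a range that reached close to the other group. The fall was 0.46 on the log2 scale (SE 0.13, adjusted p = 0.0331). The call did not survive the removal of P1, P2, N1 or N2 (adjusted p 0.00677 to 0.109 over the alternatives).

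Cflar encodes FLIP, the inactive relative of Casp8 that competes with it at death receptors. It measured 8.36, 8.89 and 8.90 without and 9.23, 9.23 and 9.15 with putrescine. All cultures without putrescine were lower, and N1 was the lowest by a wide margin. Cflar fell by 0.49 (SE 0.14, adjusted p = 0.0388), and by 0.31 without N1. The call did not survive the removal of P1, P2, P3 or N1 (adjusted p 0.0104 to 0.0995 over the alternatives).

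Birc6, which encodes a very large IAP that also conjugates ubiquitin, measured 9.93, 9.88 and 9.90 without and 9.65, 9.66 and 9.58 with putrescine. The replicates lay close together and the groups did not overlap. The rise was small, 0.27 on the log2 scale (SE 0.08, adjusted p = 0.0333). It no longer passed after quantile normalization or after the removal of any single array, and its adjusted p ranged over the alternatives from 0.00392 to 0.108.

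Among the genes that promote death, the mitochondrial effector Bak1 rose. BAK, its product, sits in the outer mitochondrial membrane and forms pores when released from BCL-XL and MCL1. Bak1 (probe set 17986761) measured 10.82, 10.77 and 10.48 without and 9.92, 9.75 and 9.75 with putrescine. The lowest culture without putrescine was well above the highest culture with it. The difference was 0.88 on the log2 scale (SE 0.11, adjusted p = 6.45e-04), and by size it ranked 765th of 14899 genes. Bok, a less studied relative of BAX and BAK, had 0.01 with a wide 95% interval of -0.42 to 0.44, since its cultures without putrescine ranged from 3.96 to 4.80.

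Of the BH3-only genes, Bmf fell and the other 4 measured did not pass. BMF is a BH3-only protein held at the cytoskeleton and released by stress such as loss of attachment. Bmf (probe set 18043257) measured 4.61, 4.80 and 4.43 without and 5.15, 5.17 and 5.13 with putrescine. The groups did not overlap, and the spread was larger without putrescine. These levels lie within or just above the range of the other-tissue markers. It fell by 0.54 on the log2 scale (SE 0.11, adjusted p = 0.00591).

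Bcl2l11 encodes BIM, which binds all survival proteins of the family. It measured 7.16, 7.05 and 6.99 without and 7.03, 6.85 and 6.74 with putrescine, with overlap. The difference was 0.19 (95% interval -0.04 to 0.42, adjusted p = 0.224), and a further probe set of the gene had -0.003. Bid, whose product carries the signal of Casp8 to mitochondria once cut by it, stayed between 8.24 and 8.38 in all cultures, with a difference of -0.02 and a narrow 95% interval of -0.21 to 0.17.

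The remaining BH3-only genes were dim. Bik, whose product acts at the endoplasmic reticulum, measured 3.55 to 4.06 with and 3.89 to 4.12 without putrescine (difference 0.23, adjusted p = 0.285). Pmaip1 encodes NOXA, a p53-induced antagonist of MCL1. Its mean over the arrays, 3.51, was below the marker level, and it had -0.32 with the widest interval of the members that did not pass (95% interval -0.76 to 0.11). Its replicates with putrescine spread from 3.33 to 4.11.

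Htra2 and Diablo encode mitochondrial proteins that bind IAPs after release into the cytosol. HTRA2 is a serine protease that in healthy cells takes part in protein quality control between the mitochondrial membranes. Htra2 (probe set 17984261) measured 8.32, 8.43 and 8.19 without and 9.32, 9.52 and 9.52 with putrescine. All 3 cultures without putrescine were far below all 3 with it. The fall of 1.14 (SE 0.10, adjusted p = 1.25e-04) ranked 328th of 14899 genes by size. Diablo, whose product SMAC has no protease activity, measured 8.48 to 8.57 without and 8.28 to 8.58 with putrescine and had a difference of 0.10 (95% interval -0.12 to 0.32).

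The measured caspase genes changed in opposite directions. CASP2 is an initiator caspase linked to DNA damage and to faults of the mitotic spindle, and CASP8 is the initiator of the receptor route. Casp2 (probe set 18035251) measured 7.95, 7.87 and 7.79 without and 6.67, 6.65 and 6.71 with putrescine. The replicates of each group lay close together and the groups were far apart. The rise of 1.19 on the log2 scale (SE 0.08, adjusted p = 4.73e-05) was the largest difference among the 25 genes and ranked 267th of 14899.

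Casp8 (probe set 18015775) measured 8.46, 8.51 and 8.63 without and 9.11, 9.05 and 9.11 with putrescine. Here the cultures without putrescine were the lower ones, again without overlap. Casp8 fell by 0.56 (SE 0.08, adjusted p = 0.00160), or 1.47-fold. Casp8 and its competitor Cflar were thus both lower, by 0.56 and 0.49.

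Of the death receptor genes, Tnfrsf1a rose slightly and Fas did not pass the test. Tnfrsf1a, the main receptor for TNF, measured 9.23, 9.24 and 9.14 without and 8.84, 8.91 and 8.96 with putrescine. The groups did not overlap. The rise was 0.30 (SE 0.08, adjusted p = 0.0278) and no longer passed without P1, P2, N1 or N2 (adjusted p 0.00560 to 0.0874 over the alternatives). Fas, the receptor of FAS ligand, measured 8.49, 8.61 and 8.88 without and 8.47, 8.58 and 8.41 with putrescine. Those groups overlapped, with a difference of 0.17 (95% interval -0.09 to 0.43) and 0.10 in a further probe set.

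The genes of both adaptors changed, in opposite directions. FADD links FAS and other receptors to CASP8. Fadd (probe set 18026060) measured 7.90, 7.94 and 7.71 without and 7.14, 7.28 and 7.55 with putrescine, so that the former were all higher. It rose by 0.53 (SE 0.12, adjusted p = 0.0130).

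TRADD docks on the TNF receptor and can lead to survival signalling through NF-kappaB or to death through FADD. Tradd (probe set 18003794) measured 6.16, 5.97 and 6.08 without and 6.72, 6.58 and 6.93 with putrescine. The cultures without putrescine were all lower. It fell by 0.67 (SE 0.11, adjusted p = 0.00231), while its receptor gene Tnfrsf1a was among the genes that rose.

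Ripk1 and Tnfrsf12a were set apart because their products serve survival as well as death. Tradd and its receptor gene Tnfrsf1a were left with the pro-death genes, although TRADD can also lead to survival signalling. Ripk1, which encodes a kinase of the TNF receptor complex, measured 8.04, 8.05 and 8.13 without and 7.93, 7.98 and 8.03 with putrescine. The groups just failed to overlap, and the difference of 0.09 (95% interval -0.09 to 0.28) did not pass the test. Tnfrsf12a encodes the receptor of the ligand TWEAK and has no death domain. It measured 8.83, 8.98 and 8.77 without and 8.63, 8.18 and 8.44 with putrescine, without overlap. It rose by 0.44 (SE 0.12, adjusted p = 0.0308), a call kept without P1 and lost without any other single array (adjusted p 0.00816 to 0.102 over the alternatives).

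**Figure D2:**
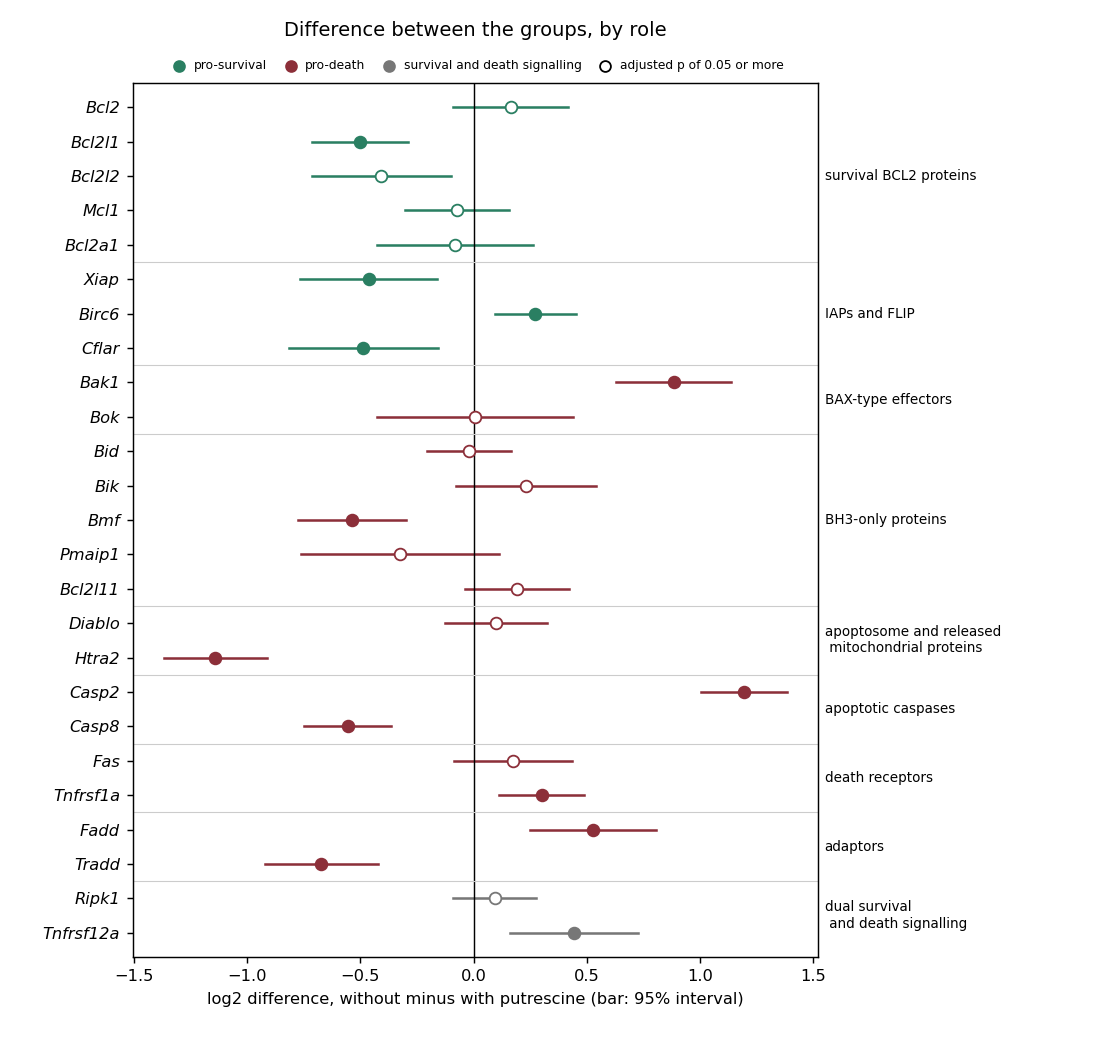
Log2 difference of each gene, without minus with putrescine, with its 95% interval from the limma fit. Filled points passed the adjusted threshold; Casp2 (1.19) and Bak1 (0.88) lie farthest to the right and Htra2 (-1.14) and Tradd (-0.67) farthest to the left, and all of these promote death in this grouping.

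Pro-survival and pro-death genes were then set side by side. The sides follow the known roles above, but Tradd and Tnfrsf1a count as pro-death although TRADD can signal either way. Of 10 pro-survival genes listed 8 were measured, and of these 1 rose, 3 fell and 4 did not pass, with a median log2 difference of -0.25 and a range of -0.50 to 0.27. Of 26 pro-death genes 15 were measured, and 4 rose, 4 fell and 7 did not pass, with a median of 0.10 and a range of -1.14 to 1.19. Without P1, P2 or N1, 1 pro-survival gene fell in place of 3. The same median was 0.007 over all genes, of which 15.8% were called higher and 14.2% lower. Over genes above the marker level it was 0.01, with 20.1% called higher and 18.3% lower. The difference between the sides was not tested, because genes are not replicates of a culture.

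The pro-survival median lay between Bcl2l2 (-0.41) and the dim Bcl2a1 (-0.08), and it was -0.41 over the 7 pro-survival genes above the marker level. The pro-survival genes that fell, Bcl2l1, Xiap and Cflar, all changed by 0.50 or less, and Birc6 went the other way. The pro-death genes held both the largest rises and the largest falls: Casp2, Bak1, Fadd and Tnfrsf1a were higher, and Htra2, Tradd, Casp8 and Bmf were lower. Within the mitochondrial route, Bak1 rose while Bcl2l1, Bmf and Htra2 fell. Within the receptor route, Fadd and Tnfrsf1a rose while Casp8, Cflar and Tradd fell.

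**Figure D3:**
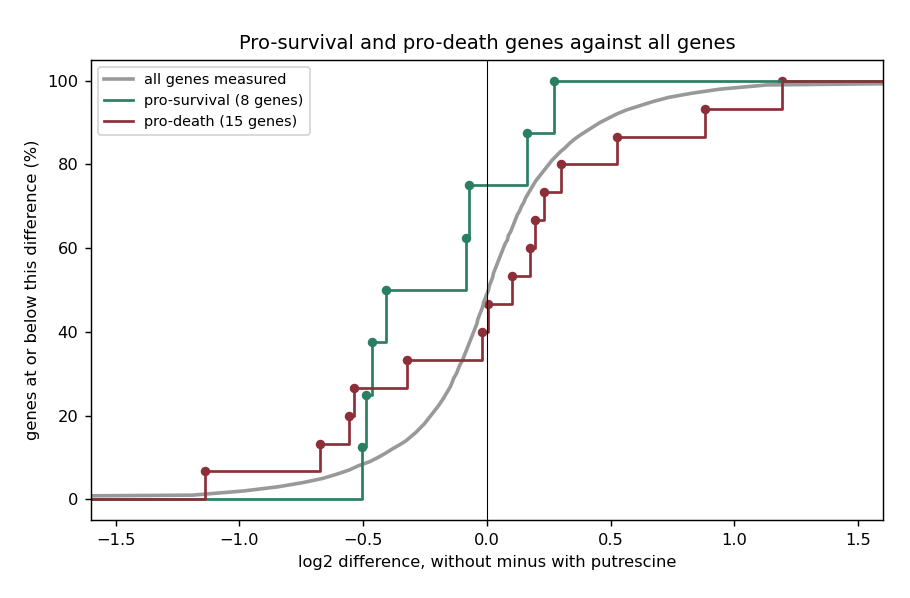
Share of genes (y axis, %) at or below each log2 difference (x axis) for the 8 pro-survival genes, the 15 pro-death genes and all 14899 genes measured. From -0.50 upward the pro-survival curve lies to the left of the grey curve, and it holds no gene below that. Below 0 were 6 of 8 pro-survival genes, 6 of 15 pro-death genes and 7338 of all 14899. Within its range of -1.14 to 1.19 the pro-death curve is wider than the grey curve on both sides, and it holds no gene beyond that. All genes together range from -3.74 to 2.81.

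The other 13 listed genes were not analysed here. For Birc2, Bax, Bad, Casp9 and Casp4 the annotated probe set also named another gene, and for Birc3, Bbc3, Hrk, Apaf1, Casp6, Casp1, Casp12 and Tnfrsf10b none carried the symbol. The comparison therefore leaves out BAX, PUMA (Bbc3), the apoptosome proteins and all listed inflammatory caspases.

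Of the 13 calls, 8 held in each of the 12 alternative fits: Casp2, Bak1, Fadd, Htra2, Casp8, Tradd, Bmf and Bcl2l1. The calls of Xiap, Cflar, Birc6, Tnfrsf1a and Tnfrsf12a did not. All 13 kept their direction throughout.

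**Figure D4:**
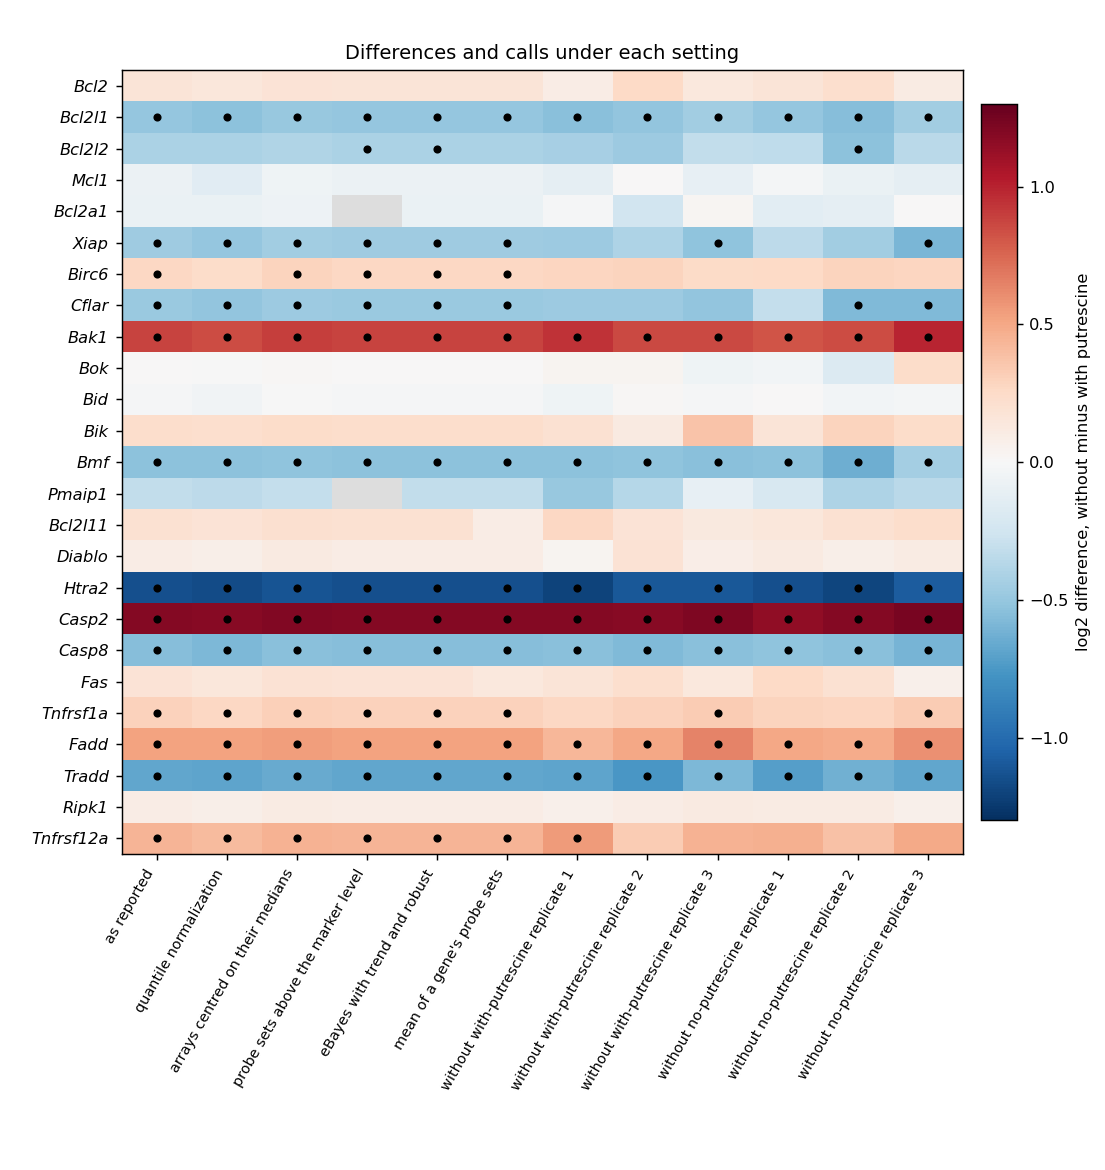
Colour gives the log2 difference of each gene (rows) in the reported fit and 11 alternatives (columns; with-putrescine replicates are P1 to P3, no-putrescine replicates N1 to N3), and a black dot marks an adjusted p under 0.05. Rows such as Casp2, Bak1, Htra2 and Tradd are dotted throughout, Birc6 loses its dot whenever 1 array is left out, and the grey cells are Bcl2a1 and Pmaip1, which are below the level used as a filter.

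The surrounding pathways gave a wider view. Of 129 further genes of cell death and its control, 95 were measured, and 20 rose, 22 fell and 53 missed the threshold. The share called, 44.2%, compares with 30.0% of all genes and 38.4% of those above the marker level. Their median difference was 0.01, against 0.007 over all genes. Without N1 or N2, 13 rose in place of 20. Of these 42 calls, 29 held in all 10 alternatives run for them. Tnfsf10 held in the 9 that kept it, and the other 12 were lost in some. All 42 kept their direction.

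PIDD1 and CRADD form the platform on which CASP2 is activated. Pidd1 rose by 0.35 on the log2 scale (adjusted p = 0.0279), a call kept without P1 and lost without any other single array (adjusted p 0.0175 to 0.0955 over the alternatives). Cradd fell by 0.71 (adjusted p = 3.35e-04) in its brightest probe set, while 2 further probe sets had -0.03 and 0.03 and did not pass. Of 4 genes measured around executioner caspases and their nuclease 2 rose and 2 did not pass. Casp8ap2, which encodes a partner of CASP8 that also works in histone gene expression, rose by 0.55, and Acin1, a caspase substrate of the nucleus, rose by 0.36. Parp1 (0.15) and the nuclease gene Dffb (-0.02) did not pass.

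Several adaptors and kinases linked to death receptors or p53 also moved. Daxx, a FAS-binding protein and histone chaperone, was 2.20-fold lower, falling from 9.44 ± 0.09 to 8.30 ± 0.07 (SD, n = 3, adjusted p = 7.41e-05). Pdcd4, an inhibitor of translation, fell by 0.86 and the death-associated kinase gene Dapk3 by 0.68. The p53-responsive genes Zmat3 and Aen rose by 0.72 and 0.39, and Zmat3 rose by 1.16 in a further probe set. Tp53inp1 had -0.32 and did not pass (adjusted p = 0.0564), and neither did the p53-induced member Pmaip1 (-0.32). The kinase gene Stk17b rose by 0.39, a call lost without P3, N1 or N3 (adjusted p 0.00689 to 0.0738 over the alternatives). In this group 4 of 17 rose and 4 fell. The share called was 47.1%, against 30.0% of all genes and 38.4% of those above the marker level.

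Around the TNF receptor, 4 of 18 genes rose, 2 fell and 12 did not pass. The share called, 33.3%, is near the 30.0% of all genes and below the 38.4% of genes above the marker level. Traf2, an adaptor that recruits IAPs to the receptor complex, rose from 7.17 ± 0.09 to 8.04 ± 0.02 (SD, n = 3), a difference of 0.87 (adjusted p = 1.72e-04). The kinase gene Map3k7, which encodes TAK1, rose by 0.67 and the ubiquitin ligase gene Rbck1 by 0.66. Traf3 rose by 0.29, a call that no fit to 5 arrays kept (adjusted p 0.0175 to 0.122 over the alternatives). Nfkb2 fell by 0.40 and by 0.52 in one of its 2 further probe sets, the other having -0.31 (adjusted p = 0.0672). Sharpin, a partner of RBCK1, fell by 0.32, a call kept without N1 and lost without any other single array (adjusted p 0.0170 to 0.117 over the alternatives). Nfkb1 (-0.08) and Rela (-0.22) did not pass.

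Among other receptors and ligands, 4 of 13 rose and 1 fell, a share near the 38.4% of genes above the marker level. Tnfsf9, the ligand known as 4-1BBL, was 2.51-fold lower, at 9.07 ± 0.16 against 10.40 ± 0.09 (SD, n = 3, adjusted p = 8.06e-05), while its receptor gene Tnfrsf9 had 0.27 and did not pass. Tnfrsf19 rose by 0.58 and the death receptor gene Tnfrsf21 by 0.36. Tnfrsf25 rose by 0.42 in its brighter probe set and had 0.05 in the other. That call needed P2, N1 and N2 (adjusted p 0.00879 to 0.0522 over the alternatives). Tnfsf10, which encodes the ligand TRAIL, rose by 0.39, from 3.21 to 3.60, with a mean over the arrays of 3.40, below the marker level. Faslg and Tnf did not pass.

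The inhibitors of death outside the BCL2 and IAP families changed in both directions, with 3 of 7 higher and 3 lower. Of all genes 15.8% were called higher and 14.2% lower, and of those above the marker level 20.1% and 18.3%. Tnfaip3, which encodes the NF-kappaB inhibitor A20, rose 1.80-fold, from 7.73 ± 0.09 to 8.58 ± 0.18 (SD, n = 3, adjusted p = 6.63e-04). Dad1 rose by 0.43, a call lost without P2, N1 or N2 (adjusted p 0.00116 to 0.0621 over the alternatives). Bag4, a silencer of TNF receptor signalling, rose by 0.36, a call lost without P2, P3, N1 or N2 (0.00675 to 0.0828). Tmbim1 was 2.04-fold lower (adjusted p = 1.21e-04) and its relative Tmbim6, which encodes BAX inhibitor 1, fell by 0.37. The co-chaperone gene Bag3 fell by 0.35, a call lost without P1, P3 or N3 (0.00319 to 0.0769).

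In the necroptosis and pyroptosis group 3 of 7 genes fell, 0 rose and 4 did not pass, a share called of 42.9% against 30.0% of all genes and 38.4% of those above the marker level. Gsdmd encodes gasdermin D, the pore protein of pyroptosis that inflammatory caspases cut. Its level of 6.64 ± 0.07 was 2.22-fold below the 7.80 ± 0.04 of the cultures given putrescine (SD, n = 3, adjusted p = 5.39e-05). Mlkl, the pore protein of necroptosis, was 1.77-fold lower, and the cytokine gene Il18 fell by 0.70 and by 0.52 in a further probe set. Ripk3, the kinase upstream of MLKL, was below the marker level. Gsdme had -0.20 and did not pass, while a dimmer probe set of it fell by 0.49.

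Of 10 further BCL2 and BNIP genes 4 fell, 0 rose and 6 did not pass, a share near the 38.4% called among genes above the marker level. Bcl2l12 fell by 0.78, Bnip3 by 0.71, Bnip3l by 0.46 and Bnip1 by 0.42. BNIP3 and BNIP3L are receptors for the removal of mitochondria by autophagy. Of 6 genes measured in the list group of other mitochondrial death proteins, 2 fell, 0 rose and 4 did not pass. The share called, 33.3%, is near the 30.0% of all genes and below the 38.4% of genes above the marker level. Aifm2 fell by 0.57, and the group mixes roles, since its product FSP1 suppresses ferroptosis. Bcap31 fell by 0.35, a call lost without P2, P3 or N1 (adjusted p 0.00148 to 0.0693 over the alternatives). Aifm1 (0.15), Vdac2 (0.16), Vdac3 (0.07) and Septin4 (0.25) did not pass.

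Of 13 regulators known to control member genes in other mammals, 3 rose, 3 fell and 7 did not pass. The share called was 46.2%, against 30.0% of all genes and 38.4% of those above the marker level. Ddit3 and Atf3, transcription factors of the stress response that can induce BH3-only and death receptor genes, fell by 1.99 and 2.44. The p53 relative Tp73 fell by 0.58, a call lost without P2 (adjusted p 0.0112 to 0.0602 over the alternatives). E2f1 rose by 0.42. Akt1 rose by 0.37, a call lost without P1, P2 or N2 (0.00319 to 0.0788). Hif1a rose by 0.31, a call lost without P3, N1, N2 or N3 (0.00148 to 0.0926). Foxo1, Foxo3 and Mdm2 did not pass.

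**Figure D5:**
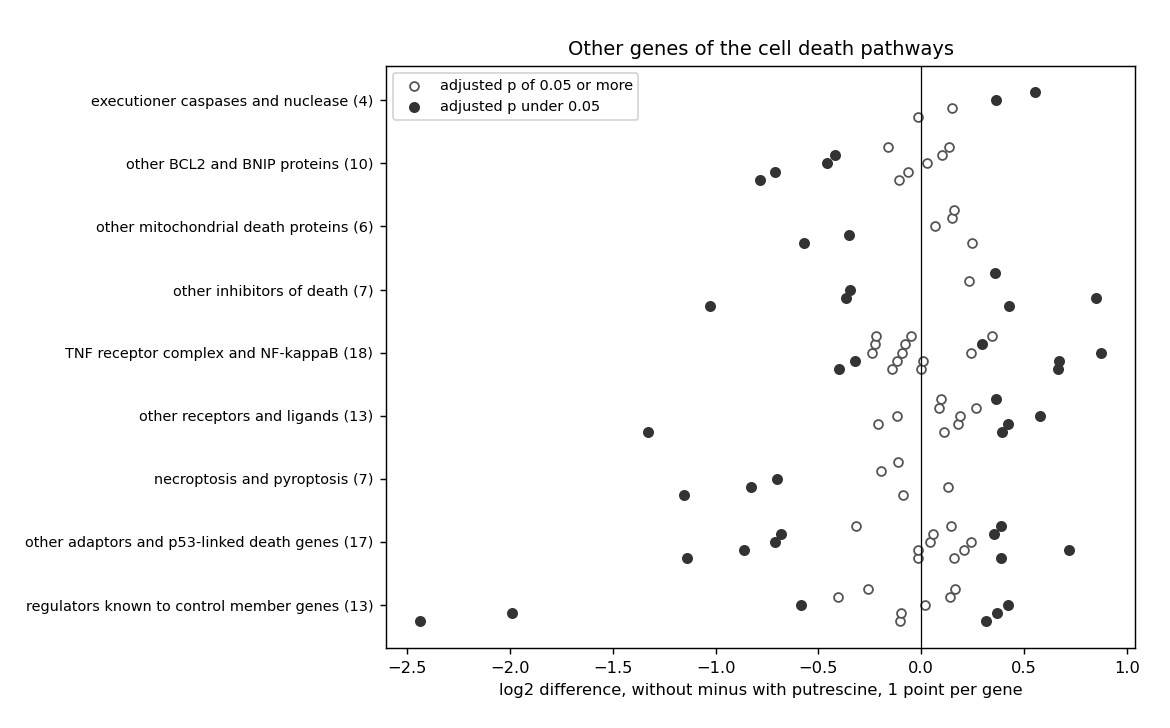
Log2 difference (x axis) of the 95 further genes of the cell death pathways, 1 point per gene, by group with the number measured in brackets. Filled points passed the adjusted threshold. Every filled point lies below 0 in the groups of necroptosis and pyroptosis, of BCL2 and BNIP proteins and of other mitochondrial death proteins. In the executioner caspase group every filled point lies above 0. The points farthest to the left are Atf3 (-2.44) and Ddit3 (-1.99).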

How the data were processed

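RNA from 6 CHO-K1 cultures, 3 per group, was measured on Affymetrix whole-transcript arrays. The table deposited by the authors holds 1 normalized log2 value per probe set and array (29700 probe sets, 1 missing value). Per the submitters' processing notes it was made with Transcriptome Analysis Console, whose version and settings, like the genome build, are not stated there. Log base 2 was assumed from the range of 1.55 to 13.66. Array medians of 4.92 to 4.98 look normalized, so a change in total RNA would not show.

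The platform annotation named 1 gene for 16481 probe sets, several for 793 and none for 12426. Of the 25 members, 24 matched the RefSeq table of assembly CriGri-PICRH-1.0 by Entrez identifier, all but Bcl2l2. No coordinates or sequences are given.

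limma 3.58.1 in R 4.3.3 fitted group alone to all probe sets (lmFit, eBayes, two-sided, Benjamini-Hochberg over all probe sets). The code was also run on simulated independent values with few changed probe sets, which does not measure its error rate in these data. All members were named, with the pathway genes that passed, up to 4 per direction and group. Other genes named were chosen after their values were seen. Members and lists were chosen with earlier results of these data known. Alternatives were quantile normalization, median centring, a filter at the marker level, a trended robust prior, the replicate number as a block, the mean of a gene's probe sets, a 1.5-fold minimum and leaving out each array. The labels call the flasks biological replicates, and 3 arrays per group limit precision.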

Additional observations from a re-analysis of the deposited data

How the results depend on the processing

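Of the 13 members called, 8 were called in all 12 alternatives with a fit of their own and 5 were lost in some, and all 13 kept their sign. Of the 12 not called, Bcl2l2 was called in some alternatives and 11 in none. With 1 array left out, the members called higher numbered 3 to 4 (6 as reported) and the members called lower 5 to 7. Among pro-survival genes 0 were called higher and 1 to 3 lower in these fits, with 1 lower without P1, P2 or N1. The median over all members was -0.035 to 0.0633 and that of the pro-death genes 0.0383 to 0.12. The pathway list had 13 to 18 higher (20 as reported), with 13 without N1 or N2. These fits use fewer arrays. After quantile normalization 0 pro-survival genes were called higher. Over probe sets above the marker level, which leaves out Bcl2a1 and Pmaip1, the medians were 0.0933 for all members, -0.41 for pro-survival and 0.14 for pro-death genes. With a minimum of 1.5-fold, 2 members were higher and 2 lower, all pro-death, and 0 pro-survival genes remained in either direction. With the replicate number as a block, 3 members were called higher and 0 pro-survival genes, since Birc6, Tnfrsf1a and Tnfrsf12a were not called, and 6408 probe sets were called against 7240. The numbers are not known to pair the cultures: deviations of same-numbered arrays correlated at 0.05, -0.10 and -0.02, and not every array correlated best with its own number. Except where an alternative's own construction shows it, the cause was not tested. Levels near 3.58 cannot be told from genes not expressed, which limits Bcl2a1, Pmaip1, Bik and, among the genes called, Tnfsf10 and Gdf9. The range of the other-tissue markers reached 5.13. Among the genes called, the mean levels of Bmf (4.88), Tnfrsf25 (4.785) and Tp73 (4.995) lay within it, as did Bok (4.42). The same limit applies to them.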
